A study of Ovis aries with 6 samples.

Results

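Broad unmethylated regions (UMRs) that were paired between lambs and fetuses with similar lengths, and that lie outside DNA methylation valleys (DMVs, the longest unmethylated stretches), numbered 3454 of 21446 autosomal fetal UMRs in sheep perirenal fat. They are the autosomal fetal UMRs that overlap exactly 1 lamb UMR which overlaps no other fetal UMR, with lengths within 1.5-fold of each other, no base in a DMV of either stage, and a merged length of the pair of 3000 bases or more. Of the fetal UMRs, 19512 were paired in this way, 18667 of the pairs passed the length ratio, 18207 of those were free of DMVs, and the length minimum left the 3454. The merged intervals cover 15.3 Mb, and the regions hold 28.2% of all bases in autosomal fetal UMRs. The rule sets the lengths and not the positions within a pair. The bases that both UMRs of a pair share were a median of 95.3% of the merged length, under 80% in 445 pairs and under 50% in 11, of which 8 had fewer than 1 CpG per 100 bases.

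Of the 6 samples, 3 are from lambs, aged 89 days in the sample protocol and 80 days in the design text of the series, with fat of the white kind by label. The other 3 are from fetuses collected 132 days after conception, where term is 150 days, with fat of the brown kind by label. All 6 animals were untreated wild-type Merino sheep from ewes on maintenance diets, and each sample is a separate animal. The sample descriptions end in VEH for lambs and in TV for fetal animals; the labels do not explain these tags, and stage and tag cannot be told apart. Perirenal adipose tissue surrounds the kidney. Its brown form burns fuel for heat around birth, its white form stores lipid, and the series title names the change from brown to white as the subject.

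Most of the genome of a differentiated tissue is methylated at CpG sites, and UMRs are the exceptions, as a rule at CpG islands where promoters lie. CpG islands stay free of methylation in part because factors that bind unmethylated CpGs and histone methylation at promoters keep the DNA methyltransferases away. Broad UMRs extend well past a single island and are often found at genes of developmental regulators, where Polycomb proteins bind, and DMVs are their extreme form. Whole-genome bisulfite sequencing counts, at each CpG, how many reads kept their C after bisulfite has converted the unmethylated cytosines. In bulk tissue a level between 0 and 100% can come from partly methylated cells or from a mixture of cells, and fewer cells of a type and a change within cells cannot be told apart. No gene positions on the build of the files were used here, so regions are named by position on Oar_v3.1, no gene, cell type marker or promoter could be assigned, and no sequence is shown.

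The deposited table lists methylated and covering reads at each CpG position for each animal. Only CpGs covered by 5 or more reads in all 6 animals were used, and a level is the percentage of covering reads that are methylated, pooled over the CpGs of a region or class. On average an autosomal CpG was covered by 5.22 to 8.00 reads in a lamb and 5.38 to 7.45 reads in a fetal animal. Coverage of the CpGs in broad UMRs was 0.937 to 0.999 times the autosomal mean in lambs and 0.991 to 1.07 times in fetal animals. Of the 453232 CpG positions listed in broad UMRs 101221 were usable, or 22.3%, against 24.7% over the autosomes. They carried between 781184 and 1097689 reads per animal. With at least 3 usable CpGs, 3352 broad UMRs could be tested one by one, and 102 could not. A tested broad UMR had a median of 227 reads per animal, with 10% of them at 85 or fewer.

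A typical broad UMR was of moderate length and less dense in CpGs than the shorter stable UMRs, and the lengths had a long upper tail. The median merged length was 3797 bases, 10% were at least 6430 bases long, and the longest measured 25821 bases. The 5 pairs just inside the length minimum, from 3000 to 3002 bases, had fetal mean levels between 3.22% and 25.3%. The 5 just outside it, from 2997 to 2998 bases, had fetal mean levels between 5.14% and 15.4%. Broad UMRs held a median of 124 listed CpGs, or 3.15 per 100 bases, against 4.08 per 100 bases in stable UMRs of at least 1000 but under 3000 bases chosen by the same rule otherwise. In both stages no autosomal UMR held fewer than 30 listed CpGs and no autosomal LMR (low-methylated region, short and of intermediate level) more than 29. The number of CpGs thus separates the classes of the lists.

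The ends of most broad UMRs lay close together in the lists of both stages. Of 6908 ends, 2992 were at the identical base in the lamb and the fetal list, and 660 broad UMRs were identical at both ends. The lamb end lay inside the fetal one at 2029 ends and outside it at 1887. Ends that moved did so by a median of 176 bases, and 90% of all ends moved by 545 bases or less. The lamb UMR was the longer of the pair in 1338 cases, the shorter in 1454 and of equal length in 662. There is 1 list per stage, so these counts carry no replicate error. The length ratio of the rule limits from the outset how far the lengths of a pair differ. It does not limit how far both ends move together.

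Summed over all broad UMRs, methylation was low in every animal and differed little between stages. The level was 9.78%, 10.1% and 9.86% in lambs 1 to 3, against 9.81%, 9.61% and 9.55% in fetal animals 1 to 3. Lambs 2 and 3 stood above the fetal animals, but lamb 1 was below fetal animal 1, so the stages overlapped. They did not overlap, with each lamb higher, in some other settings (exact permutation p = 0.1). Among these were broad UMRs with at least 1 CpG per 100 bases (0.209 points) or of at least 4000 bases (0.383 points), CpGs of high coverage left out (0.308 points), and equal weight per CpG (0.331 points) or per region (0.466 points). Without lamb 2, the highest of the 6, the difference between stages was 0.159 points. With all animals the means were 9.91% ± 0.167 in lambs and 9.66% ± 0.137 in fetal animals (SD, n = 3 each), or 0.253 percentage points more in lambs. An exact permutation test, two-sided, gave p = 0.2, where 3 animals against 3 cannot go below 0.1. Adjusted over 5 comparisons of this kind the value was 0.333. That the levels are low follows from the lists, which were made from the same animals, and the rule left out pairs whose extent changed.

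**Figure D1:**
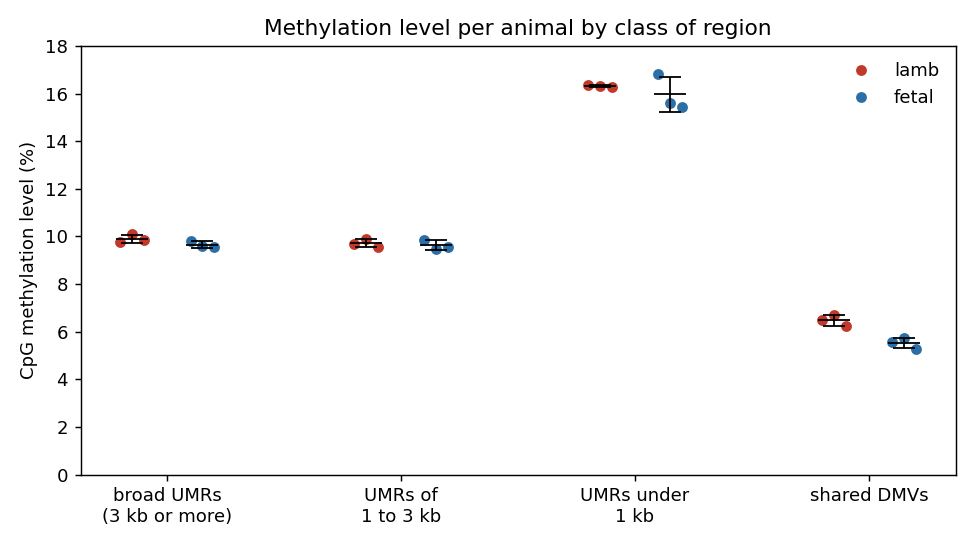
Methylation level (%, vertical axis) of each animal in 4 classes of regions, lambs in red and fetal animals in blue; the bar and whiskers are the mean and SD of 3 animals. In broad UMRs the lambs at 9.78% to 10.1% overlap the fetal animals at 9.55% to 9.81%, while in shared DMVs the lambs lie above the fetal animals.

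Over their whole merged length, broad UMRs were higher in level than the DMVs listed in both stages, and with the main settings their stage difference was smaller. The rule drops pairs with a base in a DMV, and the lists were made from the same animals, so the contrast in level is a description. The higher level includes the ends of broad UMRs, whose outer 500 bases were at 20.1% in lambs and 19.8% in fetal animals. Deeper than 1000 bases from their ends, broad UMRs were at 6.68% in lambs and 6.39% in fetal animals. These values were nearer to the DMV means of 6.48% in lambs and 5.53% in fetal animals. DMVs were measured over their whole length only. The 411 merged shared DMVs were at 6.49%, 6.71% and 6.24% in lambs 1 to 3, against 5.58%, 5.72% and 5.29% in fetal animals 1 to 3. The broad UMRs exceeded them by 3.43 points ± 0.162 in lambs and 4.13 points ± 0.210 in fetal animals (SD, n = 3 each). This gap was smaller in each lamb than in each fetal animal, with a difference between stages of -0.695 points (exact permutation test, two-sided, p = 0.1, which is the minimum of this design; 0.333 adjusted over the 5 comparisons). With a minimum of 1 read it was -0.385 points and the stages overlapped (exact permutation p = 0.2). It was 0.828 points with a minimum of 10 reads, which leaves fewer regions. Shared DMVs were not required to keep their length, as the broad UMRs were, and they were denser in CpGs, with a median of 4.01 per 100 bases. Among regions with 2 to 5 listed CpGs per 100 bases the stage difference was 0.177 points in 2436 broad UMRs and 1.02 points in 306 DMVs. Their gap differed by -0.847 points between stages (exact permutation p = 0.1). In the 697 broad UMRs of at least 5000 bases, which is the shortest length in the DMV lists, the levels were 12.8% ± 0.360 in lambs and 12.2% ± 0.334 in fetal animals (SD, n = 3 each). Their difference was 0.642 points, and against DMVs the gap then differed by -0.306 points (exact permutation p = 0.3), with overlap between the stages. The 5000 base and density limits of these comparisons were chosen after seeing the data.

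Against the shorter stable UMRs the difference in the stage effect was small, and whether the stages overlapped depended on the setting. The 12948 stable UMRs of at least 1000 but under 3000 bases were at 9.72% ± 0.158 in lambs and 9.63% ± 0.208 in fetal animals (SD, n = 3 each). The level of broad UMRs minus that of these UMRs was 0.195 points ± 0.102 in lambs and 0.0304 points ± 0.101 in fetal animals. The values of the stages overlapped and differed by 0.165 points (exact permutation test, two-sided, p = 0.2). They did not overlap with a minimum of 1 read (0.232 points), without CpGs of high coverage (0.161 points) or without the region of most usable CpGs (0.195 points), each with an exact permutation p = 0.1.

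From the ends inward, methylation of broad UMRs dropped steeply over a short distance and stayed above the values of the shorter UMRs at the same distance. In the 500 bases outside the ends the level was 69.2% ± 0.291 in lambs and 68.8% ± 0.463 in fetal animals. In the outermost 250 bases inside it was 28.6% ± 0.174 in lambs and 28.1% ± 0.551 in fetal animals. From 250 to 500 bases it was 13.7% ± 0.0101 in lambs and 13.5% ± 0.175 in fetal animals. From 500 to 1000 bases it was 8.14% ± 0.142 in lambs and 8.04% ± 0.0487 in fetal animals. From 1000 to 1500 bases it was 6.23% ± 0.0959 in lambs and 5.99% ± 0.141 in fetal animals. Deeper than 1500 bases the level was 7.09% ± 0.328 in lambs and 6.74% ± 0.205 in fetal animals (SD, n = 3 each). Only regions long enough to reach that depth count there, and longer ones add more bases. The zones thus hold different regions, and the centre value does not give the shape of a typical broad UMR. Deeper than 1000 bases, the 193 with fewer than 1 listed CpG per 100 bases were at 31.6% in lambs and 30.1% in fetal animals. The other 3261 were at 6.12% in lambs and 5.91% in fetal animals. UMRs of 1 to 3 kb, where they reach that far from an end, were at 3.21% ± 0.0568 in lambs and 3.27% ± 0.0189 in fetal animals from 1000 to 1500 bases (SD, n = 3 each). The levels helped to define both classes, so this contrast is a description.

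**Figure D2:**
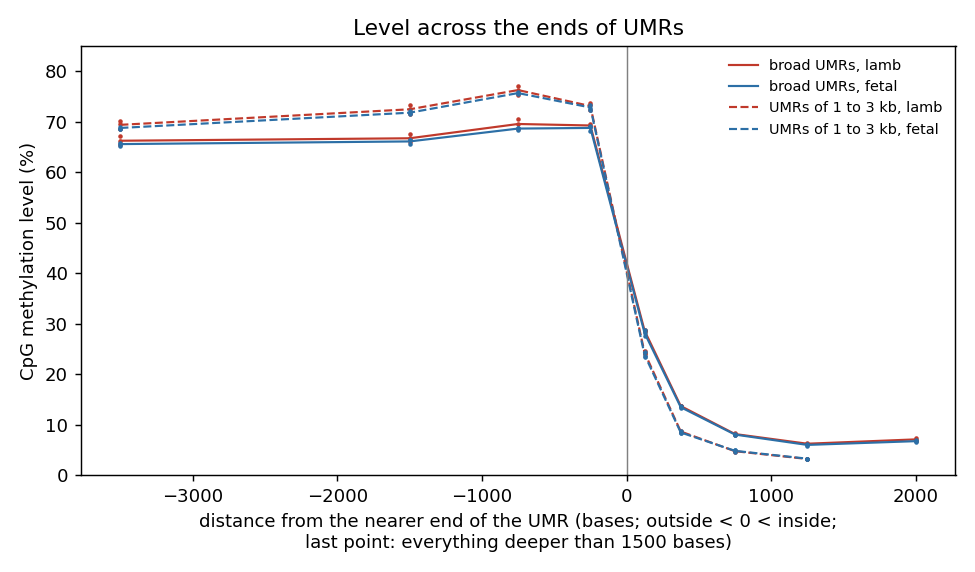
Methylation level (%) against distance in bases from the nearer UMR end, with values below 0 outside and above 0 inside; lines are stage means, dots single animals, solid for broad UMRs and dashed for UMRs of 1 to 3 kb. Lamb and fetal lines nearly coincide, and inside 500 bases broad UMRs run above the shorter ones.

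No position along this profile separated the stages beyond what the number of animals allows. Each lamb was above each fetal animal from 250 to 500 bases and from 1000 to 1500 bases inside (exact permutation p = 0.1 for both, 0.338 adjusted over the 9 positions), and the stages overlapped at the other 7. The edge, the outer 500 bases, was at 20.1% ± 0.0307 in lambs and 19.8% ± 0.289 in fetal animals. The core, deeper than 1000 bases, was at 6.68% ± 0.213 in lambs and 6.39% ± 0.126 in fetal animals (SD, n = 3 each). Edge minus core differed by -0.0222 points between stages (exact permutation p = 0.9). The sign of this value was not stable. Without the broad UMR that has the most usable CpGs, described further down, it was 0.294 points (exact permutation p = 0.2). With that region kept, it was 0.111 points without lamb 2 and 0.324 points with equal weight per CpG. The level just outside minus that of the broad UMRs differed by 0.232 points (exact permutation p = 0.5).

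The pooled level of broad UMRs rose step by step as CpG density fell. The rule does not use density, but it sets a minimum length, and density is counted over the length. Limits on density were set after the values had been seen. In the 937 broad UMRs with 4 or more listed CpGs per 100 bases the level was 7.72% ± 0.0877 in lambs and 7.54% ± 0.115 in fetal animals. The 934 with 3 to 4 were at 8.88% ± 0.240 in lambs and 8.76% ± 0.0997 in fetal animals. The 915 with 2 to 3 were at 10.7% ± 0.0863 in lambs and 10.4% ± 0.138 in fetal animals. The 475 with 1 to 2 CpGs per 100 bases were at 15.5% ± 0.433 in lambs and 14.99% ± 0.287 in fetal animals. The 193 with fewer than 1 were at 29.1% ± 0.999 in lambs and 27.5% ± 0.539 in fetal animals (SD, n = 3 each). Across the 3352 tested broad UMRs, level and density were related with a Spearman rho of -0.319 and a Pearson r of -0.372, and level and length with 0.126 and 0.262. These are descriptions over regions of the same 6 animals and not over replicates.

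**Figure D3:**
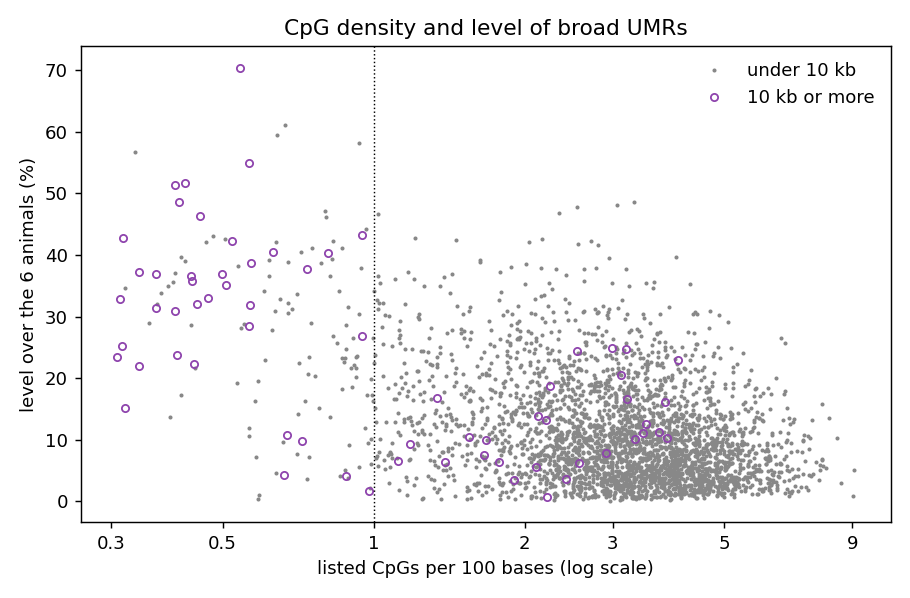
Level over the 6 animals (%) against listed CpGs per 100 bases (log scale) for the 3352 tested broad UMRs; circles are those of 10 kb or more, and the dotted line marks 1 CpG per 100 bases. Most points lie low at 2 to 5 CpGs per 100 bases, and 100 of the 141 tested points left of the line are above 20%.

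Most of the tested CpG-poor broad UMRs, those under 1 listed CpG per 100 bases, were partly methylated. Of the 141 that could be tested, 100 were above 20% methylated, 66 above 30%, and 20 at 10% or less. Over all 3352 tested broad UMRs, 1875 or 55.9% were at 10% or less, 501 were above 20% and 161 above 30%. The CpG-poor ones had a median merged length of 7059 bases, against 3749 bases in the rest, and made up 47 of the 78 broad UMRs of at least 10000 bases. Density is the number of CpGs over the length, and no UMR held fewer than 30 CpGs. Low density and great length are thus tied by how they are counted. Coverage at their CpGs was low, at 0.767 to 0.817 times the autosomal mean in lambs and 0.746 to 0.797 times in fetal animals. With a minimum of 1 read they were at 27.7% ± 1.07 in lambs and 25.4% ± 0.404 in fetal animals (SD, n = 3 each). Pooled, they also showed no fall in level from the edge to the core. Their outer 500 bases were at 27.6% ± 2.05 in lambs and 26.3% ± 0.717 in fetal animals, and their core (deeper than 1000 bases), at 31.6% ± 1.04 in lambs and 30.1% ± 0.658 in fetal animals, had the higher means. In the other 3261 broad UMRs the core was at 6.12% ± 0.173 in lambs and 5.91% ± 0.107 in fetal animals, and the edge at 19.9% ± 0.0938 in lambs and 19.6% ± 0.281 in fetal animals (SD, n = 3 each). The 5000 bases on either side of the CpG-poor ones were at 58.8% ± 0.946 in lambs and 57.5% ± 1.48 in fetal animals, above the regions themselves. The lists were made from the same animals, so this contrast is a description.

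Among the density groups the CpG-poor broad UMRs had the highest level and the widest gap between stages in points. Their levels were 28.2%, 30.2% and 28.9% in lambs 1 to 3, against 28.0%, 27.6% and 26.95% in fetal animals 1 to 3. Each lamb was above each fetal animal, by 1.55 points on average (exact permutation p = 0.1, 0.25 adjusted over the 5 groups). In the 915 broad UMRs with a CpG density of 2 to 3, each lamb was also above each fetal animal, by 0.294 points. The exact permutation p was 0.1 there too, and 0.25 adjusted over the 5 groups. The stages overlapped in the remaining groups. A lower level leaves less room for a difference, and the gaps are not adjusted for it. Set against the other broad UMRs, the CpG-poor ones were higher by 19.6 points ± 0.870 in lambs and 18.2 points ± 0.436 in fetal animals, a difference in this excess of 1.35 points between stages (exact permutation p = 0.1). Without lamb 2, whose level was the highest, the difference in excess was 0.883 points and that of the level 1.01 points (exact permutation p = 0.2 for both). Without CpGs of high coverage the level of the CpG-poor ones differed by 1.77 points (exact permutation p = 0.1). The flanking 5000 bases were 1.30 points higher in lambs (exact permutation p = 0.2), and the level of the CpG-poor broad UMRs minus that of their flanks differed by 0.252 points (exact permutation p = 0.6).

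CpG-poor broad UMRs lay at the starts of chromosome sequences at a higher share than the rest, a description with no test. Of the 193 CpG-poor broad UMRs, 54 or 28.0% began in the first 3 Mb of a chromosome, against 124 or 3.80% of the other 3261 and 3.88% of the UMRs of 1 to 3 kb. Chromosome 25 held 15 of the 54, chromosomes 18 and 20 held 7 each, and chromosome 11 held 6. The share was not general to all chromosomes. Chromosomes 1, 2 and 3 held 13, 12 and 10 CpG-poor broad UMRs, of which 0 began in the first 3 Mb. A UMR under 3000 bases that holds 30 CpGs has at least 1 per 100 bases, so the shorter class has no counterpart of the CpG-poor kind. All broad UMRs together ran from 0.726 per Mb on chromosome 26 to 3.26 per Mb on chromosome 11, with 356 on chromosome 3 and 32 on chromosome 26.

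The longest broad UMRs were of the CpG-poor kind. The longest lay on chromosome 18 from 161608 to 187428, with 0.500 listed CpGs per 100 bases. Its lamb UMR of 19320 bases and its fetal UMR of 17521 bases share 11020 bases, so much of it was listed in 1 stage only. Over 32 usable CpGs its level was 37.0%, 41.7% and 38.6% in lambs 1 to 3, against 40.4%, 34.2% and 30.5% in fetal animals 1 to 3, and the stages overlapped. The region on chromosome 22 from 1990494 to 2015448 had only 2 usable CpGs and is not interpreted. On chromosome 18 from 250966 to 274624, over 5 usable CpGs, the levels were 35.9% ± 3.58 in lambs and 30.8% ± 9.47 in fetal animals. The remaining 2 of the 5 longest both lay on chromosome 25. The region from 2331806 to 2354850 was at 29.5% ± 4.94 in lambs and 28.2% ± 8.10 in fetal animals, and that from 2164032 to 2183800 at 45.5% ± 9.40 in lambs and 45.8% ± 2.41 in fetal animals (SD, n = 3 each).

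Long broad UMRs rich in CpGs looked different. The broad UMR with the most listed CpGs, 552 over 14862 bases, lay on chromosome 3 from 132360944 to 132375805, and is named because of that number, after its values had been seen. Over 155 usable CpGs and 1334 reads per animal its level was 12.9%, 11.5% and 7.94% in lambs 1 to 3, against 12.3%, 11.2% and 10.8% in fetal animals 1 to 3. In bins of 1 kb it held stretches at 1.77% in lambs and 1.47% in fetal animals, and others at up to 30.4% in lambs and 39.8% in fetal animals. The region thus alternated between unmethylated and partly methylated stretches. Its nearest DMV was 34145 bases away.

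The broad UMR on chromosome 1 from 110941394 to 110956798 had the most usable CpGs, 292 of 448 listed, at 89.97 reads per animal and CpG. The median over tested broad UMRs was 8.55 reads. It was also named after its values were seen, and it supplied 2.83% of all reads used in broad UMRs. Its level was 7.33%, 5.56% and 6.78% in lambs 1 to 3, against 8.13%, 9.68% and 7.70% in fetal animals 1 to 3, so each lamb was below each fetal animal (adjusted p = 0.223 with limma's moderation, so it was not called). Its bins of 1 kb up to 13 kb from its start were under 5% in both stages where they could be measured, and the bin from 14 to 15 kb was at 30.8% in lambs and 40.3% in fetal animals. In 17 tested broad UMRs, 10 of them CpG-poor, the summed coverage per usable CpG was over 3 times the autosomal median of 41 reads. The part of coverage in their levels was not tested.

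**Figure D4:**
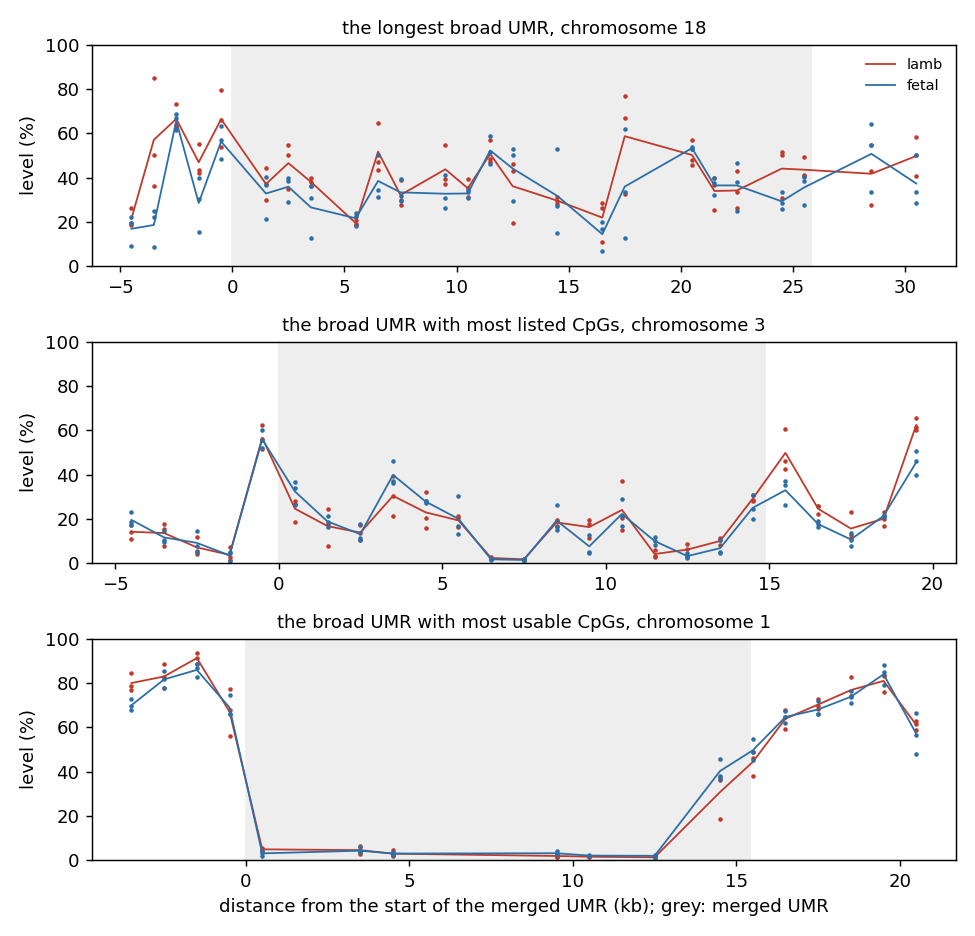
Level (%) in bins of 1 kb along 3 broad UMRs and 5 kb to each side, lambs red and fetal animals blue, lines for means and dots for animals; CpGs with at least 1 read in each animal were used, and bins with fewer than 3 of them are left out and bridged by the line. The longest region has no flat floor, the second alternates between low and partly methylated bins, and the third is flat and low until its last bins, at 30.8% in lambs and 40.3% in fetal animals from 14 to 15 kb.

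The extremes of level and density showed the span of the class. Among broad UMRs with at least 10 usable CpGs, the lowest was on chromosome 2 from 201531166 to 201534741, at 0.129% over the 6 animals together, over 15 usable CpGs and 130 reads per animal. The highest was on chromosome 6 from 618875 to 637424, at 44.8% ± 2.72 in lambs and 52.9% ± 6.48 in fetal animals (SD, n = 3 each) and 0.410 CpGs per 100 bases. Its lamb UMR of 8739 bases and its fetal UMR of 9812 bases share 1 base, so the lists place it on adjoining sequence and it is no stable region in position. The CpG-richest, on chromosome 7 from 78251744 to 78255618 with 9.06 CpGs per 100 bases, was at 4.22% ± 0.104 in lambs and 5.71% ± 1.73 in fetal animals. The second CpG-richest, on chromosome 20 from 42076425 to 42079462, was at 0.575% ± 0.746 in lambs and 1.33% ± 0.728 in fetal animals (SD, n = 3 each). The sparsest was on chromosome 9 from 166162 to 181066, with 46 listed CpGs over 14905 bases, at 26.02% ± 5.50 in lambs and 21.6% ± 7.76 in fetal animals over 4 usable CpGs.

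Tested one by one, no broad UMR could be called different between the stages. The test was a quasi-binomial model of methylated against unmethylated reads, with the dispersion moderated over all regions as in limma and Benjamini-Hochberg adjustment over the 78994 merged UMRs and LMRs tested. Of these, 4 were called at an adjusted p under 0.05, or 0.00506%, and 0 of the 3352 broad UMRs. The smallest adjusted p of a broad UMR was 0.128 with limma's moderation. On the same reads limma's own test and edgeR's quasi-likelihood test also called 0 broad UMRs. An unadjusted p under 0.05 with the higher level in lambs was found for 186 broad UMRs, or 5.55%, against 7.22% of all regions tested. With the lower level in lambs it was found for 99, or 2.95%, against 4.13%. Such broad UMRs numbered 68 higher and 47 lower by limma, and 142 higher and 86 lower by edgeR. The shares over all regions are not given for limma and edgeR, so these counts are not compared with other regions. At a coverage minimum of 3 reads the shares were 8.85% of broad UMRs and 8.20% of all regions for higher, and 3.81% and 4.69% for lower. With a minimum of 1 read they were 10.2% and 8.55% for higher, and 3.79% and 5.02% for lower, so whether broad UMRs were above or below the share of all regions in the higher direction turned with the coverage minimum.

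Of the 3061 broad UMRs with at least 10 usable CpGs 0 were called, against 0.00958% of all regions with as many. An unadjusted p under 0.05 was found in 178 of them with the higher level in lambs, or 5.82% against 8.24%, and in 93 with the lower level, or 3.04% against 4.47%. Each lamb was above each fetal animal in 278, or 9.08% against 9.44%, and below in 162, or 5.29% against 5.88%.

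Over all tested broad UMRs, each lamb was above each fetal animal in 290, or 8.65%, against 9.8% of all regions, and below in 173, or 5.16%, against 6.15%. Of the broad UMRs with at least 10 usable CpGs, 1990 of 3061 or 65.0% had stage means within 2 points of each other, 249 were at least 5 points apart and 21 at least 10 points. Their median difference was 0.234 points, with quartiles of -0.992 and 1.74. The other 17823 UMRs and LMRs with as many usable CpGs had a median of 0.389 points, between quartiles of -1.50 and 2.90. As a median, the level was 8.41% in these broad UMRs and 13.8% in the other regions. A lower level leaves less room for a difference, and the shares and medians are not adjusted for it. The broad UMRs were also selected for similar lengths in both stages, and the other regions were not. The contrast in shares and spread is therefore a description. Within a stage, a broad UMR with at least 10 usable CpGs had a median SD of 1.75 points between lambs and 1.69 points between fetal animals.

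**Figure D5:**
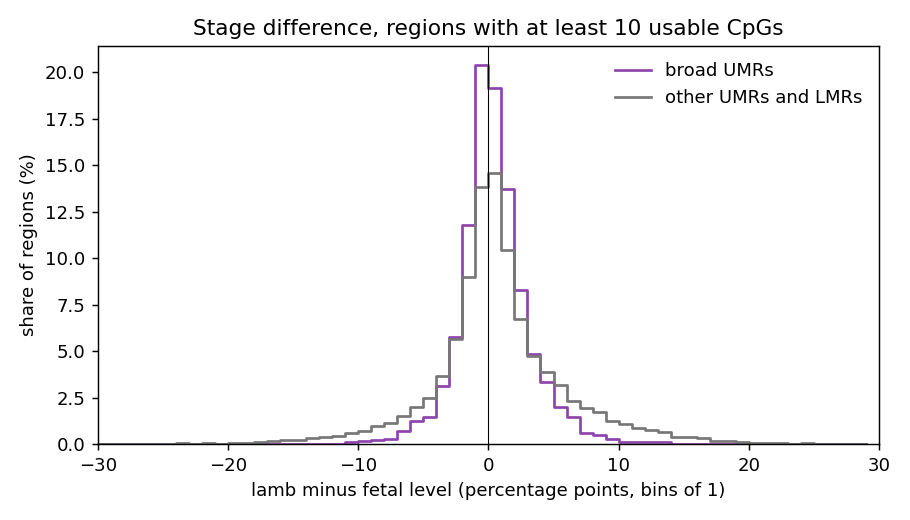
Share of regions (%) by lamb minus fetal level in bins of 1 percentage point, for 3061 broad UMRs and 17823 other UMRs and LMRs with at least 10 usable CpGs each. Broad UMRs, which the rule selected for similar lengths in both stages, are the narrower distribution, with quartiles of -0.992 and 1.74 points against -1.50 and 2.90.

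The largest differences with the higher level in lambs, among broad UMRs with an unadjusted p under 0.05 and no overlap of the animals, ran from 13.3 to 25.5 points in the first 5. On chromosome 15 from 37373504 to 37381710, a CpG-poor region with 19 usable CpGs, the levels were 25.8%, 43.6% and 38.4% in lambs 1 to 3, against 19.6%, 3.68% and 8.05% in fetal animals 1 to 3. Its difference of 25.5 points was the largest among the broad UMRs with at least 10 usable CpGs (adjusted p = 0.149 with limma's moderation). The region on chromosome 13 from 59742226 to 59746376 had 39 usable CpGs. There lambs 1 to 3 were at 31.1%, 35.0% and 34.1%, against 15.7%, 19.2% and 23.0% in fetal animals 1 to 3. This region had the smallest adjusted p, 0.128. It holds a DMR (differentially methylated region) of the authors' hyper list, and its lamb UMR was 3348 bases long against 4151 bases for the fetal one. On chromosome 7 from 1245611 to 1248783, with 32 usable CpGs, the levels were 28.3% ± 3.45 in lambs and 14.98% ± 3.60 in fetal animals (SD, n = 3 each). The others were on chromosome 25 from 41162412 to 41170918, at 13.8 points, and on chromosome 20 from 8366618 to 8373108, at 13.7 points. They were picked for their differences, and none passed the adjusted threshold.

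In the lower direction the first 5 differences ran from -12.1 to -8.32 points. On chromosome 12 from 49241382 to 49246710, with 22 usable CpGs, the levels were 28.0%, 29.4% and 29.8% in lambs 1 to 3, against 41.0%, 35.9% and 46.7% in fetal animals 1 to 3. The lambs lay close together and below the fetal animals (adjusted p = 0.241 with limma's moderation). In the next, on chromosome 17 from 46531020 to 46536020, the levels were 25.3% ± 1.41 in lambs and 36.1% ± 4.90 in fetal animals, and on chromosome 10 from 84547045 to 84550160 they were 31.04% ± 4.76 in lambs and 40.5% ± 2.72 in fetal animals (SD, n = 3 each). The region on chromosome 6 from 44586680 to 44590250 differed by -9.40 points and overlaps a hypo DMR. The last, on chromosome 3 from 136733568 to 136737849, differed by -8.32 points and lies 2717 bases from a DMV.

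Some broad UMRs varied widely between animals of the same stage. The largest SD between lambs was on chromosome 1 from 98646147 to 98649880, where lambs 1 to 3 were at 28.5%, 8.41% and 47.3% over 29 usable CpGs, against 38.2%, 36.1% and 25.5% in fetal animals 1 to 3. On chromosome 1 from 270382674 to 270387552 lambs 1 to 3 were at 38.3%, 15.5% and 42.5%, with fetal animals between 27.7% and 31.9%. On chromosome 3 from 116614661 to 116620486 lamb 1 was at 7.27% and the other lambs at 27.9% and 31.9%, with fetal animals between 25.4% and 27.3%. In each of these 3 the lambs stood on both sides of the fetal range.

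The authors' DMR lists touched broad UMRs at few places, mostly near their ends. The lists were called between the same animals, so overlaps and levels here are a description. Hyper DMRs overlapped 45 broad UMRs, or 1.30%, against 0.656% of the UMRs of 1 to 3 kb, which are shorter targets. Hypo DMRs overlapped 30 broad UMRs, or 0.869%, against 0.857%. They were 44 of the 526 autosomal hyper DMRs, or 8.37%, and 29 of the 496 hypo DMRs, or 5.85%. In 33 of 45 hyper and 24 of 30 hypo overlaps the middle of the overlap was within 500 bases of an end of the broad UMR, and 18 hyper and 11 hypo DMRs crossed an end. The 45 broad UMRs with a hyper DMR could all be tested. In 37 of them the lamb mean exceeded the fetal one, and the median difference was 2.15 points. The lamb mean was the higher one in 7 of the 29 tested with a hypo DMR, whose median difference was -1.01 points. Inside the DMRs themselves, the median difference was 21.0 points in the 11 hyper DMRs with at least 3 usable CpGs and -21.0 points in the 7 such hypo DMRs.

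Some DMRs and the broad UMRs around them are given as examples. On chromosome 18 the broad UMR from 27560258 to 27566713 holds 853 bases of a hyper DMR. The DMR was at 31.9% ± 8.09 in lambs and 19.9% ± 4.44 in fetal animals over 3 usable CpGs, and the whole region at 10.4% ± 2.43 in lambs and 6.25% ± 0.207 in fetal animals (SD, n = 3 each). On chromosome 13 the DMR from 59745721 to 59746278 was at 67.4%, 79.4% and 63.2% in lambs 1 to 3, against 24.6%, 40.0% and 41.8% in fetal animals 1 to 3, over 5 usable CpGs and 44.2 reads per animal. It lies just inside the upper end of its broad UMR. On chromosome 25 the hypo DMR from 3800020 to 3800389 was at 47.4% ± 15.4 in lambs and 62.9% ± 7.65 in fetal animals (SD, n = 3 each), with lamb 1 at 62.7% within the range of the fetal animals. On chromosome 9 the broad UMR from 31966130 to 31970431 holds 493 bases of a hypo DMR that had no usable CpG. The whole region was at 2.92%, 4.74% and 3.75% in lambs 1 to 3, against 5.52%, 9.12% and 8.33% in fetal animals 1 to 3.

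The surroundings of broad UMRs are given as shares, with no test. Within 10000 bases of a DMV were 69 broad UMRs, or 2.00%, against 1.01% of the UMRs of 1 to 3 kb. The nearest, on chromosome 11 from 42228708 to 42234536, was 157 bases from a DMV and at 14.2% ± 2.19 in lambs and 14.3% ± 2.91 in fetal animals (SD, n = 3 each). Another broad UMR lay within 10000 bases of 308, or 8.92%. A lamb LMR lay within 2000 bases of 26.5% of the broad UMRs and a fetal LMR within 2000 bases of 26.2%, against 23.0% and 23.7% of the shorter ones.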

How the data were processed

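Genomic DNA of perirenal adipose tissue from 3 lambs and 3 fetal animals was sequenced as whole-genome bisulfite libraries, per the labels, each on 1 lane with read pairs of 100 bases. The sheep build was Oar_v3.1, by the design text of the series. Tools and builds named in the submitters' processing notes are Picard, BWA, hg19 and Oar_v3.1, with no roles. For the methylation and region callers, names are not given in sources used here. The authors deposited raw counts of methylated and covering reads per CpG position and lists of region positions (other values, bases). Columns were matched to animals by the sample descriptions. The table holds 26377052 positions, of which 24936679 are autosomal and 6163112 had at least 5 reads in each animal. Positions are given counted from 1.

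Levels were compared by exact permutation tests, two-sided. Single regions with at least 3 usable CpGs were compared by a quasi-binomial likelihood ratio F test with the dispersion moderated by limma's squeezeVar and not below 1 (prior 1.46 with 10.6 degrees of freedom), fitted on all 78994 merged autosomal UMRs and LMRs, and called at an adjusted p under 0.05. No minimum difference was set for a call. Regions were named by rank: the 5 longest, the 3 highest and 3 lowest in level, the 3 most and 3 least CpG-dense, up to 5 per direction of difference with p under 0.05 and no overlap, up to 6 per DMR list, the 3 most variable and the 3 nearest to a DMV; not all of them are given in the text. The members, rules and tests were chosen with earlier results of these data known. Planned gene lists, cell type markers and sequences were not run, since no annotation or genome of Oar_v3.1 was used here. Reads are not marked by molecule. The SDs are between animals, and the region test takes its dispersion from the scatter between animals of a stage. Replicate numbers name separate animals. Alternatives were other coverage minimums, leaving out animals or CpGs of high coverage, other weights, widths, length limits, tests and the replicate block. Fits ran in R (version 4.3.3; edgeR 4.0.16, limma 3.58.1) and all else in Python (version 3.11.15; pandas 2.3.3, scipy 1.17.1, numpy 2.4.6).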

Additional observations from a re-analysis of the deposited data

How the results depend on the processing

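The level difference of broad UMRs (0.253 points) kept its sign in every setting run, from 0.0925 with a minimum of 10 reads to 0.466 with equal weight per region, and from 0.159 to 0.331 without an animal, and no setting can pass 0.05 with 3 animals against 3. The level difference was 0.184 over bases listed in both stages. The gap to DMVs (-0.695 points) ran from -0.816 to -0.627 without an animal. It was -0.506 and -0.385 with minimums of 3 and 1 reads and 0.828 with a minimum of 10 reads, where only 63 broad UMRs could be tested. The gap to shorter UMRs (0.165 points) ran from 0.120 to 0.222 without an animal, and was 0.0781 with equal weight per CpG, 0.294 for 4000 bases or more and 0.987 with a minimum of 10 reads. Edge minus core (-0.0222 points) has no stable sign. It was -3.57 with a minimum of 10 reads and -0.542 for 4000 bases or more. It was 0.176, 0.298, 0.298, 0.324, 0.177 and 0.0306 with minimums of 3 and 1 reads, without CpGs of high coverage, with equal weight per CpG, with edges of 250 bases and with at least 1 CpG per 100 bases, 0.294 without the region of most usable CpGs, and from -0.121 to 0.111 without an animal. The shore value (0.232 points) was -0.000106, -1.48 and -0.135 with minimums of 1 and 10 reads and equal weight per CpG, and between 0.0185 (fetal 3 left out) and 0.362 when an animal was left out. Broad UMRs with an unadjusted p under 0.05 (186 higher, 99 lower) numbered 304 and 352 higher with minimums of 3 and 1 reads, 2 and 3 with a minimum of 10, 68 and 47 with limma, and 152 to 183 and 76 to 100 without an animal. Non-overlapping ones (290 above, 173 below) were 1 and 4 with a minimum of 10 reads. Shares over all regions are not given for limma, the minimum of 10 reads or the settings without an animal. Those counts are therefore not compared with other regions. Called broad UMRs stayed at 0 in each setting run. With the replicate block the level difference had an exact sign flip p of 0.5, where 3 pairs cannot go below 0.25, and 0 broad UMRs were called; same-numbered animals' deviations correlated by -0.0111, -0.00838 and 0.0378 over broad UMRs, which does not pair them. Limits on density, lengths of 5000 bases and leaving out the most covered region were chosen after seeing the data. The minimum of 10 reads leaves fewer regions; for the other changes the cause was not tested.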
